A study of Homo sapiens with 4 samples.

Results

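BRD8 binding was examined at 10 genes that control passage from G1 into S phase: CCND1, CCND2, CCND3, CCNE1, CCNE2, CDK2, CDK4, RB1, RBL1 and RBL2. They were chosen by name from 19974 protein-coding genes of the GRCh38 annotation. Every BRD8 peak whose summit lay inside one of them, or within 1 kb of either end, was taken. This gave 22 of 22303 peaks in HCT116 and 10 of 12874 in SW480. HCT116 and SW480 are established human colorectal cancer cell lines, grown untreated in McCoy's 5A and Leibovitz's L-15 medium. Each contributed 1 chromatin immunoprecipitation sequencing (ChIP-seq) library made with an anti-BRD8 antibody and 1 input library without antibody. Since each line was measured in 1 ChIP library, values of the lines are set side by side without a replicate check or a test.

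D-type cyclins switch on CDK4, and E-type cyclins switch on CDK2. These kinases phosphorylate the retinoblastoma protein RB1 and its relatives p107 (encoded by RBL1) and p130 (RBL2), which otherwise hold E2F transcription factors and their target genes in check. BRD8 carries a bromodomain and belongs to TIP60/NuA4, a complex that acetylates histones and exchanges histone variants at promoters.

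Fold enrichment here is the deposited ratio of ChIP signal to local background at a peak's summit, with a median over all peaks of 3.70 in HCT116 and 3.34 in SW480. The number of fragments over the summit (the pileup) and the local background were solved from the deposited fold and p of each peak. Pileups have exact 95% Poisson intervals, which cover counting error only. The lists give no read totals. The lowest background in each list, a level the peak caller sets from genome-wide ChIP coverage, was 3.75 fragments in HCT116 and 4.09 in SW480.

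BRD8 was called at an end of 9 of the 10 genes in HCT116 and of 6 in SW480, counting summits within 1 kb of either end. Across all protein-coding genes the shares were 44.0% and 22.1%. The same 6 genes had a gene-end peak in both lines, as did 20.3% of coding genes, and among coding genes with one in HCT116 46.1% also had one in SW480. The SW480 count rests on weak peaks: with a −log10 q of at least 2 it was 3 genes, against 21.0% of coding genes, while HCT116 kept 9, against 43.4%. Counting peaks anywhere in the gene or within 1 kb, the numbers were 9 and 7, against 52.3% and 29.8% of coding genes. Each of the 7 was bound in both lines, and 26.7% of coding genes were. With a −log10 q of at least 2, 4 genes had a SW480 peak, against 28.3% of coding genes, and 4 genes were bound in both lines. Requiring instead that regions of the full lists overlap by 50% of both left 2 genes. Shares of coding genes bound in both lines are not given for these settings. CCNE1 and CCNE2 had HCT116 peaks alone, and CCND2 had none in either line. Among the genes with a gene-end peak, the median of the highest gene-end fold was 5.98 in HCT116, against 4.87 for all such coding genes. In SW480 it was 3.05, against 3.40. The HCT116 median equals the CCND3 value, which comes from a region wholly outside that gene with its summit inside TAF8. The other HCT116 gene-end peak of CCND3 had a fold of 3.64.

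**Figure D1:**
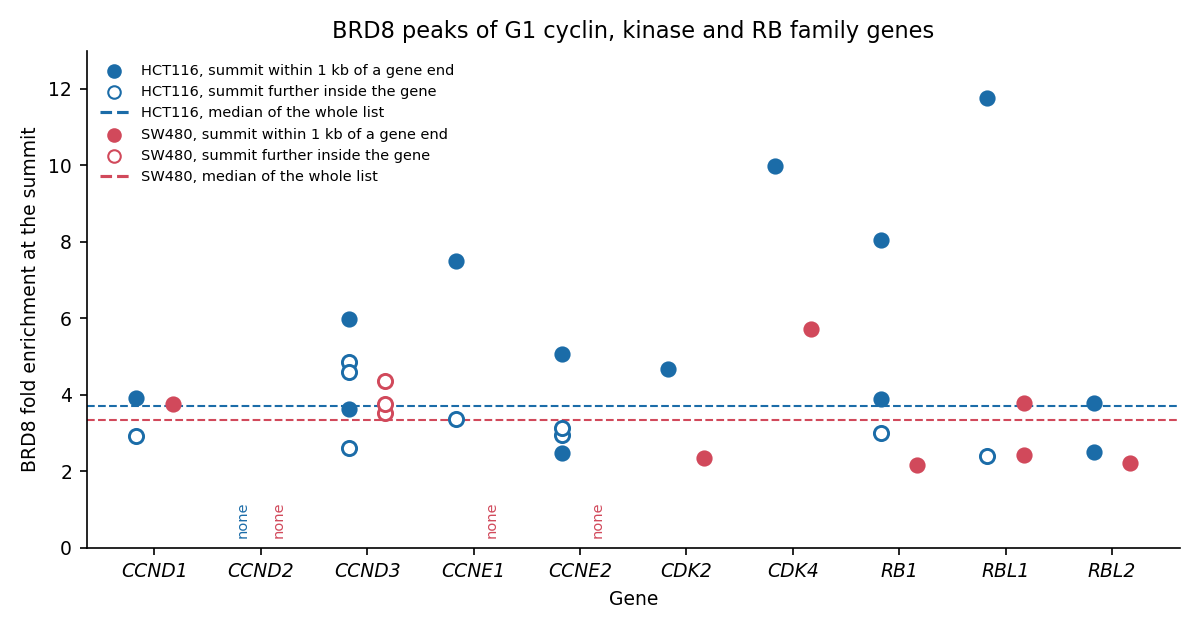
BRD8 fold enrichment (y axis) of every peak of the 10 genes (x axis), for HCT116 in blue and SW480 in red. Filled points have summits within 1 kb of a gene end, open points lie further inside the gene, and dashed lines are the medians of the whole lists (3.70 and 3.34). RBL1, CDK4, RB1 and CCNE1 are highest in HCT116, and CDK4 is highest in SW480.

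The order of the genes by their highest fold in HCT116 was RBL1 (11.8), CDK4 (9.99), RB1 (8.05), CCNE1 (7.51), CCND3 (5.98), CCNE2 (5.07), CDK2 (4.69), CCND1 (3.93) and RBL2 (3.79). In SW480 it was CDK4 (5.74), CCND3 (4.37), RBL1 (3.80), CCND1 (3.76), CDK2 (2.34), RBL2 (2.21) and RB1 (2.16). By fold, RB1 was among the highest in HCT116 and last in SW480. By −log10 q its SW480 peak (1.90) was above those of RBL2 (1.65) and CDK2 (1.62). The HCT116 value of CCND3 comes from a region outside the gene, with its summit inside TAF8. Neighbours in these orders have no replicate spread to be compared with.

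Reference promoter sequences are shown for the 3 genes whose upstream windows were covered by regions of both lines, and for CCNE1, whose window lay between regions. Each is the 250 bases before an annotated start, from the RefSeq promoter table (GRCh38.p14), 5′ to 3′ on the gene's own strand. That table held 9 such windows for 6 of the 10 genes. Capitals mark exact matches on either strand to the motifs searched. These were TTTCGCGC and TTTGGCGC (bound by E2F factors), TTTGAA (the cell cycle homology region) and CCAAT. The others were TGACGTCA (cyclic AMP response element), CCGGAAG (ETS factors), the NRF1 motif by its consensus of 10 letters, CACGTG (the E-box of MYC and MAX), GGGCGG (the GC box) and AAGATGGC (YY1). Some can overlap one another. A match describes letters, not a bound site.
RBL1, chr20:37095998-37096247, minus strand: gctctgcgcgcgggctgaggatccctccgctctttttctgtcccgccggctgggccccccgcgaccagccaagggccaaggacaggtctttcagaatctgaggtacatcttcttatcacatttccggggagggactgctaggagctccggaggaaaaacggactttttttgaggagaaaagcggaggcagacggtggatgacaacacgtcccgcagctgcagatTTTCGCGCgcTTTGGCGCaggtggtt
CDK4, chr12:57752311-57752560, minus strand: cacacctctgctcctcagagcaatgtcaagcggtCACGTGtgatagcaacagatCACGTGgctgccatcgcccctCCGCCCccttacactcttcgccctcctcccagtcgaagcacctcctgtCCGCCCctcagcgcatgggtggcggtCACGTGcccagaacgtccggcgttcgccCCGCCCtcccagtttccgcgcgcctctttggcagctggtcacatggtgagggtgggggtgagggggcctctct
CCND3, chr6:42048689-42048938, minus strand: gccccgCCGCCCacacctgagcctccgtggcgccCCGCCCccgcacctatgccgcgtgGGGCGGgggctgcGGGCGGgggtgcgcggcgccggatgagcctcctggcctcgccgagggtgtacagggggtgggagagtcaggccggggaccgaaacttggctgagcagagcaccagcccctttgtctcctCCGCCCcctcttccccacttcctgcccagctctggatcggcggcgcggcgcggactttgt
CCNE1, chr19:29811741-29811990, plus strand: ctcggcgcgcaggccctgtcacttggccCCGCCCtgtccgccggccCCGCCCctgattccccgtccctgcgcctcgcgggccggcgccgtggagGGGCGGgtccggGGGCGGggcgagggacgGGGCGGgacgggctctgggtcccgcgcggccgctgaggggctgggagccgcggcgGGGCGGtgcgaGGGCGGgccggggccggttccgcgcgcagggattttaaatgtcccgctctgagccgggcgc

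The RBL1 window ends with TTTCGCGC at 26 to 19 bases and TTTGGCGC at 16 to 9 bases before the annotated start. Of 34961 promoter windows of this length, 0.44% held the first motif, 0.552% the second and 0.02% (7 windows) both. The CDK4 window holds CACGTG 3 times, at 216, 196 and 101 bases before the start, and GGGCGG 3 times. One or more CACGTG occurred in 6.35% of all windows, and 3 or more in 0.0772%. GGGCGG occurred 5 times in the CCND3 window and 7 times in the CCNE1 window, and 4.16% of windows held it 5 or more times. The cut-offs of 3 CACGTG, 5 GGGCGG and both E2F motifs match what the printed windows hold and were not fixed beforehand. The GC content was 59.2% for RBL1, 65.6% for CDK4, 74.4% for CCND3 and 81.2% for CCNE1, against a median of 58.4%. At RBL2, the windows of its starts at 53434471 and 53435619 held 1 NRF1 match and 1 CCAAT match, respectively. Of all windows, 5.09% held the NRF1 motif and 32% held CCAAT. The RB1 window, before a start at 48476450, held 0 matches. The CCND3 windows before 41939205 and 41941808 held 1 and 4 matches.

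CDK4 encodes the kinase partner of D-type cyclins, and its start carried the strongest SW480 peak among the 10 genes. The gene lies on chromosome 12 (57747727 to 57752310, GRCh38), on the minus strand. The HCT116 region (57750262 to 57752510, 2249 bp wide) had a fold of 9.99, higher than 97.5% of the HCT116 list, and its −log10 q was 45.5. The SW480 region (57751561 to 57752394, 834 bp) had a fold of 5.74, higher than 96.7% of its list, and its −log10 q was 36.5. Both summits lay inside the gene just after the start, at 233 bp in HCT116 and 251 bp in SW480, so 18 bp apart. The pileup was 72 fragments in HCT116 (95% interval 56.3 to 90.7) and 94 in SW480 (75.96 to 115.0). These intervals overlap, but they cover counting error only and are not scaled to depth. The background was 6.31 and 15.6 fragments. CDK4 had a higher pileup but a lower fold in SW480 than in HCT116. Both regions reached into the printed window, over 200 of its 250 bases in HCT116 and 84 in SW480.

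CDK2, the kinase partner of cyclins E and A, carried its peak at opposite ends in the lines. The gene spans 55966830 to 55972789 on chromosome 12 and is transcribed from its lower end. In HCT116 the region (55966832 to 55967486) had its summit 108 bp inside that lower end, with a fold of 4.69, a −log10 q of 13.4 and a pileup of 41. The summit also lay within 1 kb of an end of PMEL, a pigment cell gene next to CDK2. In SW480 no region was called there. The SW480 region (55972383 to 55972656) had its summit 375 bp inside the upper end, with a fold of 2.34, a −log10 q of 1.62 and a pileup of 22. This SW480 value was close to the list's q threshold and its fold exceeded 7.06% of the SW480 list. The 2 summits were 5476 bp apart, so CDK2 counts as bound in both lines by the rule without a shared site.

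The D-type cyclins, which are the growth-factor-responsive partners of CDK4, had 3 different patterns. CCND1 (cyclin D1, chromosome 11, 69641156 to 69654474) had overlapping regions at its lower end, from which it is transcribed. The HCT116 region was 1748 bp wide with its summit 210 bp inside the gene, a fold of 3.93 and a pileup of 48 (35.4 to 63.6). The SW480 region was 642 bp wide with its summit 836 bp before the gene, a fold of 3.76 and a pileup of 57 (43.2 to 73.9). The regions overlapped, although the summits were 1046 bp apart. CCND1 had the highest HCT116 background of the 22 peaks, 11.5 fragments, and 14.4 in SW480. A weaker HCT116 peak lay 1235 bp inside the gene, at a fold of 2.92.

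Further regions lay upstream of CCND1, beyond the 1 kb limit. In HCT116 a region from 69635547 to 69639389, 4415 bp before the gene by its summit, had a fold of 9.02, a −log10 q of 36.2 and a pileup of 61. It overlapped 2 SW480 regions with summits 4381 and 2274 bp before the gene and folds of 4.004 and 3.901, close to the 3.76 of the SW480 peak at the gene end. An end of CCND1 was the nearest annotated gene end to each of these 3 summits. The peaks nearest the limit on its inner side were the SW480 peak of CCND1 at 836 bp and a HCT116 peak of CCNE2 at 869 bp, with folds of 3.76 and 2.49.

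CCND3 (cyclin D3, chromosome 6, 41934933 to 42050035, minus strand) had the most regions, 5 in HCT116 and 3 in SW480. RefSeq gives it several starts. At one of them, 42048688, both lines had a narrow region with summits 1 bp apart, 191 bp before the start in HCT116 and 192 bp in SW480. Both summits fall in the printed CCND3 window. The HCT116 region was 269 bp wide with a fold of 4.61 and a pileup of 31 (21.1 to 44.0), and the SW480 region 245 bp with a fold of 4.37 and a pileup of 46 (33.7 to 61.4). These summits lay 1156 and 1155 bp from the outer end of the gene, beyond the 1 kb limit, so SW480 has no gene-end peak at CCND3. The highest HCT116 fold at CCND3, 5.98 with a pileup of 53, lay 652 bp outside that end in a region shared with TAF8, which encodes a subunit of the general transcription factor TFIID. Between these, a HCT116 region (42049393 to 42049763) had its summit 539 bp inside the same end, with a fold of 3.64 and a pileup of 30. A region further inside the gene (41966783 to 41967777 in HCT116) was also called in both lines, with folds of 4.87 and 3.77 and summits 156 bp apart. SW480 had a further region 999 bp from that one at a fold of 3.54. The fifth HCT116 region was the weakest, with a fold of 2.60, and its summit lay 499 bp before another annotated start, 41941808.

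CCND2 (cyclin D2, chromosome 12, 4273762 to 4305353) had no peak in either line. The nearest regions were 15137 bp beyond its upper end in HCT116 and 15484 bp in SW480, with folds of 3.66 and 3.81. They lay 723 and 376 bp from an end of TIGAR, a regulator of glycolysis. Because each list stops at a q threshold of 0.05, a gene without a peak is not shown to be free of BRD8.

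The E-type cyclins, the activators of CDK2, were called in HCT116 alone. CCNE1 (cyclin E1, chromosome 19, 29811991 to 29824312, plus strand) had a HCT116 region at 29810813 to 29811522 with its summit 683 bp before the start. Its fold was 7.51, higher than 93.0% of the list, with a −log10 q of 23.02 and a pileup of 44 (31.97 to 59.1). A weaker region had its summit 1319 bp after the start, with a fold of 3.38 and a pileup of 20. Between them a gap of 1746 bp spanned the start and the whole printed window, where no base was in a region. The SW480 summit nearest to either was 32206 bp away.

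CCNE2 (cyclin E2, chromosome 8, 94880224 to 94896693) had 4 HCT116 regions. The main one was 2265 bp wide, the widest of all 32 peaks, with its summit 101 bp inside the upper end, from which CCNE2 is transcribed. Its fold was 5.07, its −log10 q 13.95 and its pileup 39 (27.7 to 53.3). That summit also lay within 1 kb of an end of NDUFAF6, an assembly factor of respiratory complex I, so the 2 genes share the region. The other 3 regions had folds of 2.49, 2.95 and 3.13, all under the HCT116 median. The one at 2.95 was within 1 kb of an end of INTS8, an Integrator subunit gene. The nearest SW480 summit was 127597 bp or more from every CCNE2 summit.

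The RB family held both the highest and some of the lowest values. RBL1 (p107, chromosome 20, 36996349 to 37095997, minus strand) had the strongest HCT116 peak, a 1893 bp region (37095021 to 37096913) at a fold of 11.8 with a −log10 q of 77.3, rank 132 of the list. SW480 had 2 separate regions inside that span, 37096000 to 37096259 and 37095147 to 37095571. The HCT116 summit and the stronger SW480 summit lay 101 and 124 bp before the start, 23 bp apart and inside the printed window. The pileups there were almost equal, 112 fragments in HCT116 (92.2 to 134.8) and 114 in SW480 (94.0 to 136.9). The caller's background was 29.3 fragments in SW480 against 8.61 in HCT116, with folds of 3.80 and 11.8. By −log10 q the SW480 peak, at 27.6, ranked 275 of its list, while by fold it ranked 3490. The other SW480 region, 621 bp after the start, had a fold of 2.42 and a background of 25.4. A second HCT116 region (37094199 to 37094740), with its summit 1329 bp after the start, had a fold of 2.41 and a pileup of 18.

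RB1 (chromosome 13, 48303751 to 48481890, plus strand) had its strongest region directly before the gene. The HCT116 region (48302825 to 48303749) ended beside the gene's first base, with its summit 175 bp outside, a fold of 8.05, a −log10 q of 23.4 and a pileup of 42 (30.3 to 56.8). A gap of 464 bp over the gene's first bases followed, and then regions with summits 799 and 2275 bp inside the gene, at folds of 3.89 and 2.99. In SW480 1 region was called, 217 bp outside the gene and 42 bp from the HCT116 summit. Its fold was 2.16, its −log10 q 1.90 and its pileup 31 (21.1 to 44.0). The background was 4.34 fragments in HCT116 and 13.8 in SW480. The pileup intervals overlap, but they cover counting error only and are not scaled to depth. The SW480 fold was 0.268 times the HCT116 fold. A SW480 region just beyond the 1 kb limit, 1486 bp before RB1, had the higher fold of 3.34 at a pileup of 17 and a background of 4.396. RB1-DT, a long noncoding RNA gene that diverges from RB1, has an end within 1 kb of the strongest RB1 summits of both lines.

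RBL2 (p130, chromosome 16, 53434471 to 53491648, plus strand) had weak peaks in both lines. HCT116 had regions with summits 399 bp before and 780 bp after the gene's first base, at folds of 2.50 and 3.79 and pileups of 23 and 17. SW480 had 1 region, with its summit 685 bp inside the gene, a fold of 2.21, a −log10 q of 1.65 and a pileup of 26. The SW480 region overlapped the first HCT116 region by 255 bp, but its summit was 95 bp from the summit of the other. The −log10 q of these 3 peaks ran from 1.65 to 4.33.

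**Figure D2:**
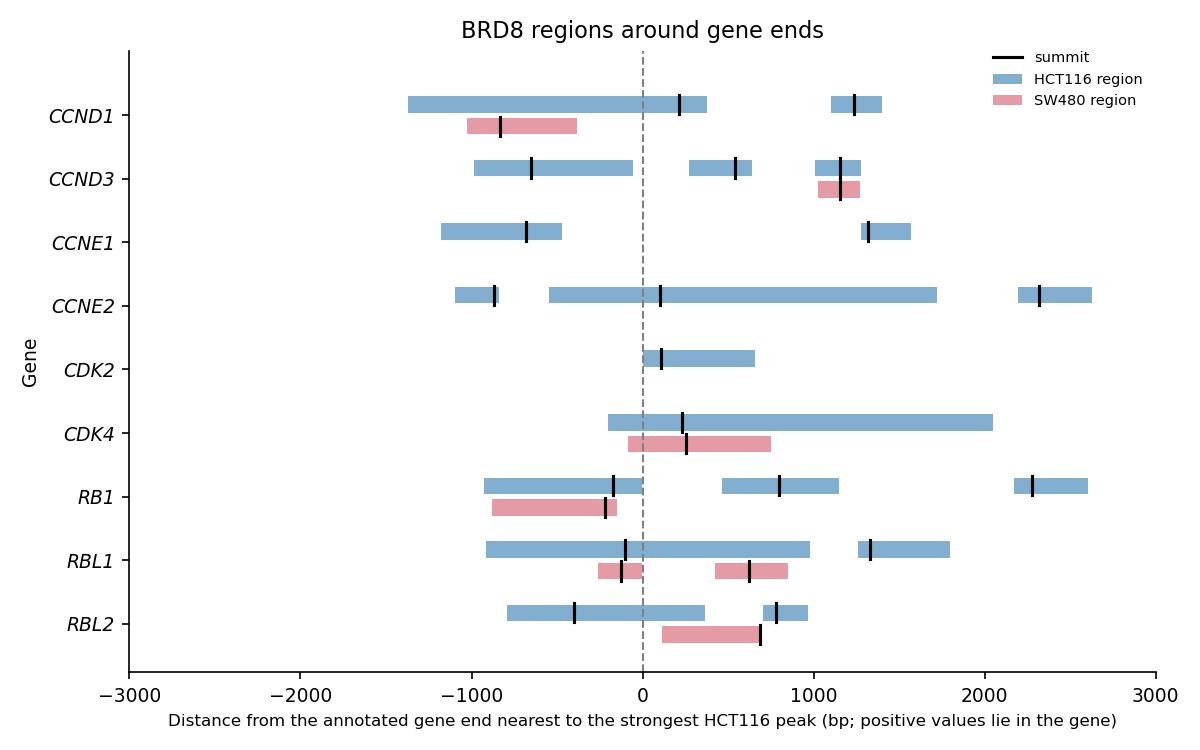
BRD8 regions (bars) and summits (black ticks) of the 9 bound genes, by distance in bp from the gene end nearest to the strongest HCT116 peak, with positive distances inside the gene. HCT116 is blue and SW480 red. Regions beyond 3000 bp, such as the SW480 peak at the other end of CDK2, are not drawn. CCND3, CDK4, RB1 and RBL1 have SW480 summits within 50 bp of a HCT116 summit, while CCNE1 and CCNE2 have no red bar.

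Several genes had more than 1 region at the same end. In HCT116 this held for CCND3, CCNE2, RB1 and RBL2, 4 of the 9 genes with a gene-end peak, against 14.9% of coding genes with one. In SW480 it held for RBL1, 1 of 6, against 17.2%. Of these HCT116 regions, some at CCND3, CCNE2 and RB1 lay wholly outside the gene. Their summits were inside TAF8, NDUFAF6 and RB1-DT, respectively, and that of CCNE2 had a −log10 q of 1.725. At CCND3, CCNE1 and RB1 in HCT116, and at RBL1 in SW480, a gap between neighbouring regions of 325 to 1746 bp spanned the annotated gene end. CDK4 in both lines, and CCND1, CCNE2, RBL1 and RBL2 in HCT116, instead had a region across that end.

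The peaks called in both lines differed more in background than in pileup. There were 8 overlapping pairs of regions, at CCND1, CCND3 (2 pairs), CDK4, RB1, RBL1 (2 pairs) and RBL2. They held 7 of the 22 HCT116 peaks and 8 of the 10 SW480 peaks. Of all peaks, 24.2% in HCT116 and 49.1% in SW480 overlapped the other line. The SW480 to HCT116 pileup ratio of the pairs ran from 0.563 at the weaker RBL1 region to 1.48 at CCND3, with a median of 1.07. The background ratio ran from 1.09 to 3.41, with a median of 2.05, and was above 1 in all 8. The fold ratio had a median of 0.675. For 4162 overlapping pairs at coding gene ends the medians were 0.862 for pileup, 1.67 for background and 0.537 for fold. Pileups were not scaled to library depth, since the lists give no read totals. Backgrounds can depend on the 1 input library of each line, which was not examined apart from the peak calls. The lowest background of each list was 3.75 fragments in HCT116 and 4.09 in SW480. Fold by its definition depends on both pileup and background, and the source of the differences in fold between the lines was not tested. Summits of the pairs were 1 to 1084 bp apart, and 4 of 8 pairs were within 50 bp, against 34.8% at coding gene ends. At CCND1, RBL2 and the weaker RBL1 region they were 1046, 1084 and 722 bp apart, so those ratios compare different summits. Both RBL1 pairs use the same HCT116 region, whose values enter the medians with each pair.

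**Figure D3:**
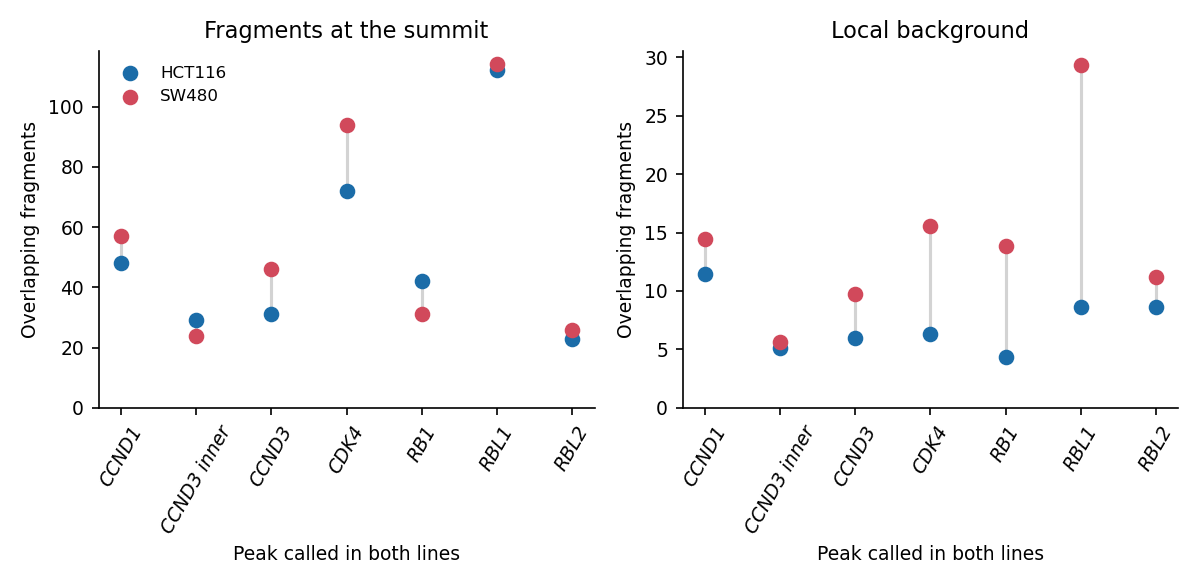
Fragments over the summit (left) and local background (right), in overlapping fragments, at the 7 HCT116 peaks of these genes that overlap a SW480 peak, each with the SW480 region of nearest summit. HCT116 is blue and SW480 red, and "inner" marks the region inside CCND3. Pileups lie close together at RBL1 (112 and 114), while the backgrounds there are 8.61 and 29.3.

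Further genes of the pathway were counted in 4 lists, against the same shares of 44.0% and 22.1% of coding genes. Gene ends of CDK inhibitors, which block cyclin-dependent kinases, were bound at 7 of 7 genes in HCT116 and at 4 in SW480. CDKN2D, an inhibitor of CDK4 and CDK6, had the highest HCT116 fold at 13.3, with 2.60 in SW480, and CDKN2C followed with 6.003 and 2.90. The highest SW480 folds were 4.37 at CDKN1B and 4.01 at CDKN2A, whose gene-end folds in HCT116 were 4.44 and 3.75. Of 10 genes for E2F and DP factors, a group that includes the transcription factors held by the RB family, 9 and 5 were bound. E2F3 had 11.2 and 3.62 and E2F8, a repressive E2F, 9.84 and 3.76, while E2F5 and E2F6 led in SW480 with 3.93 and 3.92.

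Of 6 genes for the MuvB core, which joins p107 or p130 in the DREAM repressor complex, and its partner B-Myb, 5 and 4 were bound. RBBP4 and LIN54 had the highest HCT116 folds, 5.71 and 5.69, and LIN52 and LIN9 the highest SW480 folds, 4.95 and 4.72. These last were above their HCT116 values of 4.60 and 4.19. Of 10 genes for kinase partners and regulators, 9 and 6 were bound. CKS1B, a small CDK-binding protein, had 7.42 and 4.16, CCNA2, the cyclin of S phase, 7.09 and 2.79, and CDC25A, a CDK-activating phosphatase, 4.38 and 3.39. TFDP1, the B-Myb gene MYBL2 and CCNA1, named after their values were seen, lacked a gene-end peak in both lines. In none of these 4 lists was a gene bound at an end in SW480 alone, a pattern also rare among coding genes (1.81%), so the count of 0 is near that share.

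**Figure D4:**
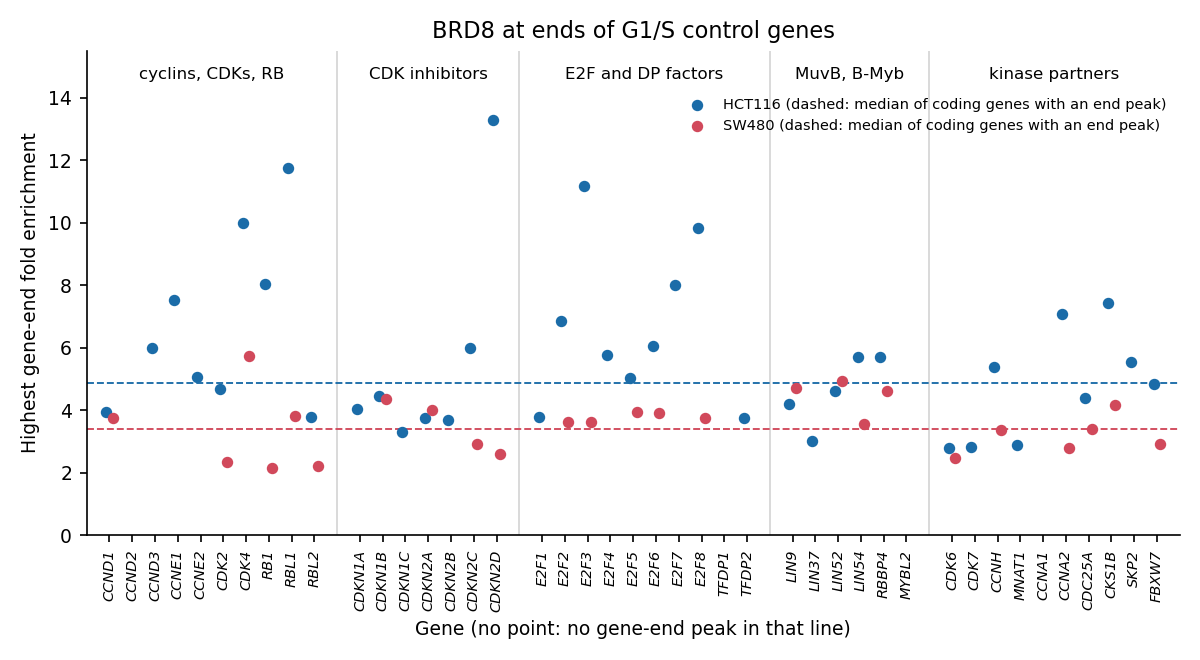
Highest gene-end fold enrichment (y axis) of the 10 genes and of 33 further genes of G1/S control (x axis), for HCT116 in blue and SW480 in red. A missing point means no gene-end peak in that line, and dashed lines are the medians of coding genes with such a peak, 4.87 and 3.40. CDKN2D, RBL1 and E2F3 are highest in HCT116, and CDK4 is highest in SW480.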

How the data were processed

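BRD8 ChIP-seq was analysed in 2 cell lines, with 1 ChIP library each. Per the labels' protocols, cells were fixed for 10 minutes in 1% formaldehyde, chromatin was cut with micrococcal nuclease, and 2 µg of a polyclonal anti-BRD8 antibody was used. Reads were paired, 150 bp each. Per the submitters' processing notes, Trimmomatic 0.33, Bowtie2 2.4.1, MACS2 and deepTools were used with GRCh38. The sources used here give no read filters. The authors deposited 1 narrowPeak list per ChIP library, not pooled. The deposited fold enrichment is a ratio that the authors' peak caller computed between the ChIP signal and its local background. A −log10 p-value and a −log10 q-value, both at the summit, were deposited beside it. The deposited score follows the −log10 q and was not used.

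Peaks on chromosomes 1 to 22 and X were kept, leaving out 9 HCT116 and 72 SW480 peaks. Gene positions (1-based) are those of RefSeq on GRCh38.p14. Pileup and background were solved by scanning pileups up to 2999 (fold as pileup + 1 over background + 1, p as the Poisson upper tail, relative tolerance 0.0001), which succeeded for 99.99% and 99.98% of peaks. The step recovered the pileup of all 500 peaks simulated with the same formula. That checks the solving alone, not whether the caller used this formula. Regions overlapping by 1 bp were called shared. Scripts ran in Python 3.11.15 with scipy 1.17.1. No test between lines was made. The genes and pathway lists were chosen with earlier results of these data known. Named were all 10 genes with all their peaks, genes with an end within 1 kb of a described summit, and the 2 genes of highest gene-end fold per line in each pathway list. Alternatives covered the q threshold, list length, distance from the gene and the overlap rule.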

Additional observations from a re-analysis of the deposited data

How the results depend on the processing

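Of 61 values recomputed under 7 alternatives for 11 counts and medians, 45 stayed within 1.5 times the reported value and 16 did not. The SW480 counts rested on weak peaks. With a −log10 q of at least 2, and likewise of at least 5, 4 genes kept a SW480 peak (CCND1, CCND3, CDK4 and RBL1), 3 kept one at a gene end, and 4 were bound in both lines. The coding-gene shares in SW480 were then 28.3% and 19.0% for any peak, and 21.0% and 14.5% for gene-end peaks. Shares bound in both lines are not given at these thresholds. RB1, RBL2 and CDK2 were the SW480 genes lost at either threshold. At a −log10 q of at least 5, HCT116 had 12 peaks at these genes and SW480 6. With equal numbers of peaks in the lists HCT116 had 12 peaks. With no flank beyond the gene, the median of the highest folds was 3.93 in HCT116 and 2.42 in SW480. The main setting, counting every peak of each gene, gave 5.98 and 3.76. Without the flank 4 HCT116 and 5 SW480 peaks overlapped the other line, against 7 and 8 in the main setting. When an overlap had to cover 50% of both regions, 3 peaks of each line overlapped and 2 genes had a peak in both lines. Shares over all peaks and all coding genes are not given for the flank and overlap alternatives. The cause of each change is the construction of the alternative, since each removes peaks or pairs. HCT116 kept 7 to 9 genes with a gene-end peak under every alternative that applied. No paired analysis was possible because each line has 1 ChIP library. Read totals were missing and pileups of the lines were not scaled to depth. Peaks near the threshold, such as those of RBL2, limit what the absence of a region shows.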

Other observations

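CDK6, the other kinase partner of D-type cyclins and no member of the set described above, held many regions in both lines. The gene (chromosome 7, 92604921 to 92836573, 231653 bp) had 13 peaks in HCT116 and 30 in SW480, of which 1 in each line lay at a gene end. Including CDK6, 36 coding genes had at least 13 in HCT116, and 5 had at least 30 in SW480. CDK6 lies in a stretch of chromosome 7 (76 to 96 Mb) that is itself dense in SW480 peaks. With 1 kb on either side, CDK6 had 55.6 peaks per Mb in HCT116 and 128.4 in SW480, and the rest of the stretch had 4.199 and 43.0. Its highest fold was 5.02 in HCT116, at a pileup of 28 and a background of 4.78, and 6.10 in SW480, at a pileup of 30 and a background of 4.09, the lowest level of that list. The gene-end folds were 2.79 and 2.45. CDK4, of 4584 bp, had 1 region in each line. CDK6 was singled out after its values were seen.

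Around CDK4, the strongest region within 20 kb was not at a G1 gene. It lay 19712 bp beyond the upper end of CDK4 in HCT116 and 19700 bp in SW480, 83 and 95 bp from an end of METTL1, a tRNA methyltransferase gene. Its fold was 23.4 in HCT116 and 7.31 in SW480, with pileups of 161 and 139.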
